A study of Mus musculus with 6 samples.

Results

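Interferon response genes are the genes that cells switch on after they sense interferon, and 33 of them were followed here in leukemic and normal mouse myeloid progenitors. A gene counted as measured where the deposited table held a probe set with its symbol alone, and of several such probe sets the one with the highest mean log2 value over the 6 arrays was used. By this rule 30 of the 33 genes were measured, of 13146 genes in all, while Isg15, Mx2 and Ifi44 had no such probe set. In 3 leukemia samples the cells came from spleens of numbered MF1 mice with leukemia, generated by transplanting progenitors transduced with AE9a, a truncated form of the AML1-ETO fusion protein, into lethally irradiated wild-type MF1 mice. In 3 wild-type samples they came from bone marrow of wild-type MF1 mice. All samples were sorted for the Lin-/Sca1-/cKit+ phenotype, the fraction that holds committed myeloid progenitors, all mice were 12 to 16 weeks old, and each sample gave 200 ng of total RNA for 1 Affymetrix Mouse430_2 array. Since all leukemia cells came from spleen and all wild-type cells from marrow, leukemia and tissue cannot be told apart in any comparison. The hosts had been irradiated and the wild-type mice are not described as transplanted, so the labels give no transplanted control.

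Type I interferons bind the receptor chains Ifnar1 and Ifnar2, whose kinases Jak1 and Tyk2 phosphorylate transcription factors, Stat2 among them, that join Irf9 to bind a DNA element called ISRE in the promoters of antiviral genes. Interferon gamma acts through Ifngr1, Ifngr2, Jak1 and Jak2 on another DNA element, GAS, and through Irf1, and drives guanylate-binding proteins, the immunoproteasome and MHC class I presentation. Usp18 and Socs1 are induced by the same signals and damp them. In blood formation interferon is known to act on stem and progenitor cells as well as on mature immune cells.

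The interferon response of the leukemia samples was not uniform. Many induced antiviral genes, led by Ifi27l2a, Oas2, Rtp4 and Usp18, lay above every wild-type array on leukemia arrays 2 and 3, but near or below the wild-type level on leukemia array 1. The peptide-presentation genes Psmb8, Psmb9 and Tap1 and the GTPase genes Gbp2 and Gbp3 were lower on every leukemia array. Upstream of these, Ifngr1, Irf1 and Irf8 fell while Jak1 and Jak2 rose, and the ISG15-conjugating enzyme genes Uba7 and Ube2l6 rose on every leukemia array.

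Some facts of the arrays touch all of these values. The 3 wild-type arrays correlated at 0.992 to 0.994 over all probe sets, leukemia array 1 correlated with the other leukemia arrays at 0.970 and 0.969, and those at 0.978 with each other. Arrays with the same hybridization date entry were taken as 1 fluidics run, which put leukemia array 1 with the 3 wild-type arrays and leukemia arrays 2 and 3 in a second run, so among the leukemia arrays mouse and run cannot be told apart. Leukemia array 1 also had the highest 5' signal of 18S ribosomal RNA (12.35 log2, against 11.25 and 11.14 on leukemia arrays 2 and 3 and 7.77 to 9.41 in wild-type) and the highest 3' minus 5' difference of Gapdh (0.31 log2, against 0.08 and 0.01 on the other leukemia arrays and -0.14 to -0.06 in wild-type), both read as signs of RNA quality. Among markers of other cells, 5 of 7 plasmacytoid dendritic cell genes were measured, and Spib was dim on every array. The summed intensity of the 5 was 591, 1559 and 687 on leukemia arrays 1, 2 and 3, against 1005 to 1256 in wild-type. Ly6d carried the sum on array 2 (9.76 log2, against 4.25 and 4.23 on leukemia arrays 1 and 3 and 4.51 to 5.64 in wild-type), Tcf4 fell (7.36, 4.34 and 3.99 log2 on leukemia arrays 1, 2 and 3, against 8.59 to 8.89 in wild-type, limma adjusted p = 0.0134), and Bst2 is itself induced by interferon. The 6 of 8 measured macrophage genes summed to 147 to 193 in leukemia against 1607 to 2603 in wild-type, and the 5 of 6 measured NK cell genes to 232 to 269 in leukemia against 2498 to 3154 in wild-type. Csf1r carried the macrophage sum in wild-type (10.17 to 10.96 log2) and Nkg7 the NK cell sum (11.06 to 11.42 log2). The macrophage gene Adgre1 and the NK cell genes Klrd1 and Gzma were dim on every array. The 5 of 7 measured erythroid genes summed to 2829, 6322 and 6844 on leukemia arrays 1, 2 and 3, against 4632 to 6927 in wild-type, sums carried by Klf1 and Tfrc. Of the erythroid genes Alas2 and Slc4a1, dim in wild-type, rose on every leukemia array, at least 9.58-fold and 4.73-fold with wild-type set to the filter level (limma adjusted p = 2.89e-04 and 6.69e-05). Both met the filter through leukemia alone. Klf1, Tfrc and Epor changed by -0.45, -0.61 and 0.17 and did not pass (limma adjusted p = 0.448, 0.130 and 0.612). Tfrc lay below every wild-type array on every leukemia array. Of 5 measured sort and progenitor genes Kit, Cd34, Mpo and Elane fell (limma, adjusted p under 0.05), where 25.2% of all genes tested fell. Mpo and Elane, defining genes of granulocyte-monocyte progenitors, were dim on every leukemia array and met the filter through wild-type alone. The remaining gene, Fcgr3, was at 10.29, 8.91 and 7.70 log2 on leukemia arrays 1, 2 and 3, against 8.05 to 8.46 in wild-type. Its change of 0.78 did not pass (limma adjusted p = 0.318). Kit, the receptor used in the sort, fell by 0.76 and stayed bright, at 9.76, 9.80 and 9.34 log2 on leukemia arrays 1, 2 and 3, against 10.35 to 10.42 in wild-type, and the Sca1 gene Ly6a was not measured. The part of RNA quality, fluidics run and other cells in the results was not tested. In sorted bulk samples fewer cells of a type and less RNA per cell cannot be told apart.

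Of the 30 measured genes 24 were bright enough to test, that is, at or above the 40th percentile of all probe sets of the array on at least 3 arrays. Of the 24, 19 were at this level on all 6 arrays. Mx1, Gbp3, Rtp4 and Oasl1 met the filter through wild-type alone, and Oasl2 through both groups together, so a difference of these is measured partly against dim values. The other 6, Ifit1, Ifit3, Rsad2, Zbp1, Iigp1 and Cxcl10, were dim. With limma 2 of the 24 rose and 6 fell in leukemia at an adjusted p under 0.05, where 16.9% of all 9715 genes tested rose and 25.2% fell. The share of interferon response genes that changed in either direction, 33.3%, lay below the 42.1% of all genes tested, and 7 of the 24 passed and changed at least 2-fold, beside 19% of all genes. Of the 6 genes that fell, 4 were at the filter level on all arrays. The median change of the 24 was 0.28 log2 (leukemia minus wild-type), beside -0.09 over all genes tested. Without leukemia replicate 1, 13 of the 24 rose and 6 fell, beside 19.9% and 28.6% of all genes. That setting sets leukemia arrays of the second run alone against wild-type arrays of the first. Leukemia and fluidics run therefore cannot be told apart in it, here or for any gene below. Without wild-type replicate 2 or 3 only 1 rose. The calls over all 9715 genes in either direction then also dropped, from 4089 to 2742 and 2647. When the fluidics run entered the model as a block, which sets leukemia array 1 alone against wild-type, 2 rose and 11 fell, beside 20.9% and 32% of all genes, though this model has 1 leukemia array in the comparison and takes its spread from the other arrays.

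**Figure D1:**
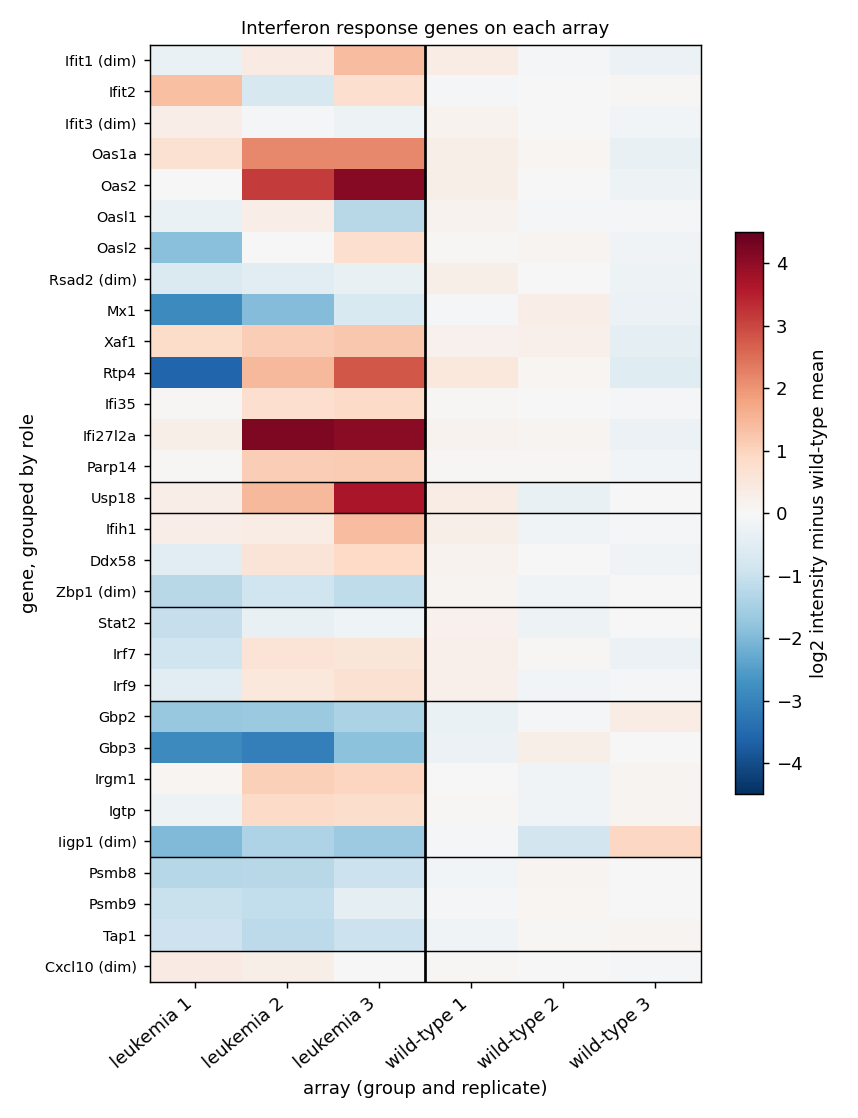
Log2 intensity minus the wild-type mean for the 30 measured interferon response genes (rows, grouped by role; dim genes were not tested) on the 3 leukemia arrays and the 3 wild-type arrays. Oas2, Rtp4, Ifi27l2a and Usp18 are red on leukemia arrays 2 and 3 but not on leukemia array 1, and Gbp2, Gbp3, Psmb8, Psmb9 and Tap1 are blue on all 3 leukemia arrays.

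The leukemia arrays are therefore also described singly. The median difference of the 24 tested genes from the wild-type mean was -0.39 on leukemia array 1, 0.53 on leukemia array 2 and 0.78 on leukemia array 3, where the median of all genes tested was -0.10, -0.09 and -0.05. On leukemia array 1, 5 of the 24 genes lay above every wild-type array and 14 below, against 38.2% and 50.4% of all genes tested. On leukemia array 2, 15 lay above and 8 below (34.5% and 49.6% of all genes), and on leukemia array 3, 16 lay above and 7 below (37.9% and 45.8% of all genes). Leukemia array 1 was the lowest of the leukemia arrays for 19 of the 24 genes (43.3% of all genes), and it lay at least 1 log2 unit below both others for 11 of them (3.07% of all genes). The median SD over the leukemia arrays was 0.64 log2 for the 24 genes against 0.20 in wild-type, and over all genes tested it was 0.22 in leukemia against 0.11 in wild-type. In 7 of the 24 genes the leukemia arrays spanned at least 2 log2 units, beside 2.59% of all genes, and these were Ifit2, Oas2, Oasl2, Mx1, Rtp4, Ifi27l2a and Usp18.

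**Figure D2:**
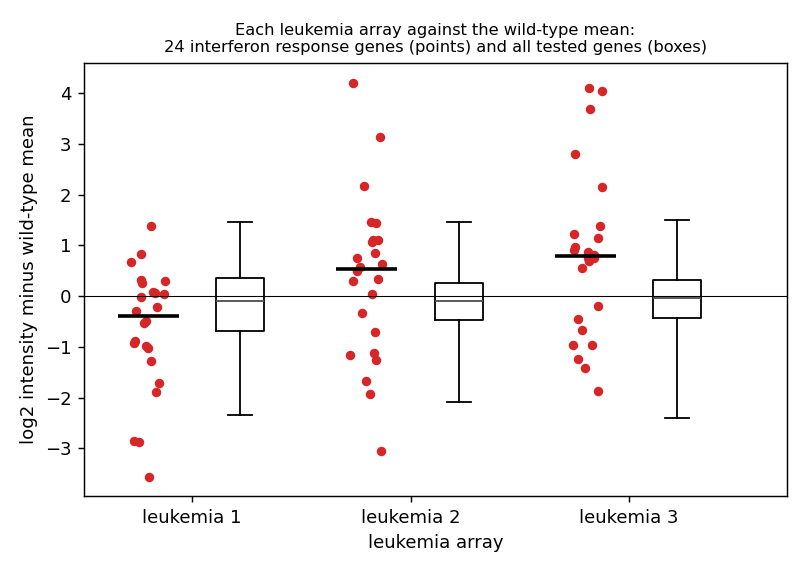
Difference of each leukemia array from the wild-type mean (log2) for the 24 tested interferon response genes (points; black lines are their medians, -0.39, 0.53 and 0.78) and for all 9715 genes tested (boxes are quartiles, whiskers the percentiles 5 and 95). The points lie higher on leukemia arrays 2 and 3 than on array 1, while the boxes stay near 0.

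The same difference was read from the run term of the model with the fluidics run as a block, which compares leukemia arrays 2 and 3 with leukemia array 1. It was read after array 1 had been seen to be the lowest, so it describes that pattern and does not test it. Of the 24 genes 12 were higher on arrays 2 and 3 and 0 were lower (limma, adjusted p under 0.05), where 9.24% of all genes tested were higher and 4.54% lower. The 12 were Oas1a, Oas2, Oasl2, Rtp4, Ifi35, Ifi27l2a, Parp14, Ddx58, Irf7, Irf9, Irgm1 and Igtp. The model has 1 array on the lower side and borrows its spread from the others, and with array weights in place of equal ones 0 of the 24 and 0 of all 9715 genes passed.

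Among the antiviral effectors the largest mean change was that of Ifi27l2a, a small membrane protein gene induced by type I interferon. Ifi27l2a was at 7.10, 11.04 and 10.88 log2 on leukemia arrays 1, 2 and 3, against 6.99, 6.94 and 6.56 in wild-type. Arrays 2 and 3 stood far above every wild-type array and array 1 just above, so the groups did not overlap, which held for 10 of the 24 genes and 59.2% of all genes tested. Of these 4 were higher and 6 lower in leukemia, beside 24.2% and 35% of all genes. The change over all arrays was 2.84 ± 0.99 (SE) and missed the threshold (limma adjusted p = 0.0555), while without leukemia replicate 1 it was 4.13 (limma adjusted p = 2.57e-05) and leukemia array 1 alone was 0.26 above the wild-type mean.

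The oligoadenylate synthetases make the messenger that activates RNase L against viral RNA. Oas2 was at 5.76, 8.92 and 9.89 log2 on leukemia arrays 1, 2 and 3, against 6.04, 5.76 and 5.54 in wild-type. Array 1 lay within the wild-type range and arrays 2 and 3 more than 2 log2 units above it, and the change of 2.41 ± 0.96 (SE) did not pass (limma adjusted p = 0.0838; 3.62 without leukemia replicate 1, adjusted p = 3.44e-04). Oas1a was at 9.07, 10.57 and 10.55 log2 on leukemia arrays 1, 2 and 3, against 8.65, 8.49 and 8.06 in wild-type. Every leukemia array lay above every wild-type array, and Oas1a rose by 1.66 ± 0.41 (SE, limma adjusted p = 0.0163), a change of 0.68 on leukemia array 1 alone. The call was lost without wild-type replicate 2 (limma adjusted p = 0.0522) and without wild-type replicate 3 (limma adjusted p = 0.0655). Mouse Oas1 genes are a cluster of similar copies, and how far this probe set tells them apart was not tested.

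The OAS-like genes behaved differently from each other. Oasl2 was at 3.53, 5.45 and 6.17 log2 on leukemia arrays 1, 2 and 3, against 5.47, 5.54 and 5.24 in wild-type, so that array 1 was far below and array 3 above the wild-type range. Its change of -0.37 ± 0.62 (SE) did not pass (limma adjusted p = 0.659), and leukemia array 1, dim for this gene, differed by -1.88 from the wild-type mean. Oasl1 was at 5.82, 6.41 and 4.88 log2 on leukemia arrays 1, 2 and 3, against 6.28, 6.02 and 6.05 in wild-type, and array 3, the highest of the leukemia arrays for Oasl2, was the lowest for Oasl1 (change -0.41, limma adjusted p = 0.401).

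Rtp4, which encodes a receptor-transporter protein with antiviral activity, had the widest spread of the 24 tested genes. It was at 3.55, 8.56 and 9.90 log2 on leukemia arrays 1, 2 and 3, against 7.57, 7.19 and 6.55 in wild-type. Array 1, dim for this gene, differed by -3.56 from the wild-type mean while arrays 2 and 3 lay above every wild-type array, so the mean change of 0.23 ± 1.49 (SE, limma adjusted p = 0.911) describes none of the 3 samples. Without leukemia replicate 1 the change was 2.12 (limma adjusted p = 0.0108).

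Mx1 had the same order of leukemia arrays as Rtp4 but lay below wild-type on all of them, and Ifit2 had another order. Mx1, a dynamin-like GTPase that blocks influenza virus in mice with an intact allele, was at 4.09, 5.02 and 6.28 log2 on leukemia arrays 1, 2 and 3, against 6.91, 7.25 and 6.70 in wild-type. All leukemia arrays lay below all wild-type arrays, and Mx1 fell by 1.83 on the log2 scale (SE 0.51, limma adjusted p = 0.0272), although array 1 was again the lowest. Leukemia arrays 1 and 2 were below the filter level, and with both set to it the change was -1.25. The call of Mx1 was lost without wild-type replicate 1, 2 or 3 (limma adjusted p = 0.0755, 0.0950 and 0.0666) and without leukemia replicate 2 (0.0616). Ifit2, which binds viral RNA and translation factors, was at 9.10, 7.02 and 8.48 log2 on leukemia arrays 1, 2 and 3, against 7.67, 7.75 and 7.77 in wild-type. Here array 1 was the highest leukemia array and array 2 lay below wild-type, and the change of 0.47 ± 0.48 (SE) did not pass (limma adjusted p = 0.459; 1.06 without leukemia replicate 2, adjusted p = 0.00956).

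Xaf1, an interferon-induced partner of the apoptosis inhibitor XIAP, rose on all 3 leukemia arrays by its brighter probe set. It was at 9.88, 10.15 and 10.27 log2 on leukemia arrays 1, 2 and 3, against 9.24, 9.28 and 8.62 in wild-type. The groups did not overlap, Xaf1 rose by 1.05 ± 0.20 (SE, limma adjusted p = 0.00584), and leukemia array 1 alone was 0.84 above the wild-type mean. Its dimmer probe set was at 5.80, 8.30 and 8.85 log2 on leukemia arrays 1, 2 and 3, against 5.93 to 6.83 in wild-type, with array 1 below all wild-type arrays and arrays 2 and 3 above them. With the mean of its probe sets Xaf1 changed by 1.19 and missed the threshold (limma adjusted p = 0.0690).

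Ifi35 and Parp14 were, like Ifi27l2a, higher on leukemia arrays 2 and 3 than on array 1, by smaller differences. Ifi35, an interferon-induced leucine zipper protein gene, was at 10.21, 10.91 and 11.04 log2 on leukemia arrays 1, 2 and 3, against 10.24, 10.16 and 10.11 in wild-type. Parp14, a mono-ADP-ribosyltransferase gene, was at 7.49, 8.53 and 8.59 log2 on leukemia arrays 1, 2 and 3, against 7.49, 7.50 and 7.33 in wild-type. On these probe sets array 1 lay within the wild-type range and arrays 2 and 3 above it in both genes. Another bright Ifi35 probe set had array 1 below the wild-type range. It was at 8.51, 9.88 and 9.83 log2 on leukemia arrays 1, 2 and 3, against 9.02 to 9.21 in wild-type. A further Ifi35 probe set had array 1 within the wild-type range (8.83 log2, against 8.73 to 8.92). The changes of 0.55 and 0.77 did not pass over all arrays (limma adjusted p = 0.0718 and 0.0755), and without leukemia replicate 1 they were 0.81 and 1.12 (limma adjusted p = 4.05e-04 and 6.01e-04). Of the dim effectors, Ifit1, a cap-binding RNA sensor, reached the filter level only on leukemia array 3 (4.61, 5.30 and 6.29 log2 on leukemia arrays 1, 2 and 3, against 5.24, 4.88 and 4.64 in wild-type). Ifit3 and the radical SAM enzyme gene Rsad2, both textbook interferon-induced genes, reached it on no array, with means of 4.72 and 4.58 log2 in leukemia against 4.72 and 5.07 in wild-type.

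**Figure D3:**
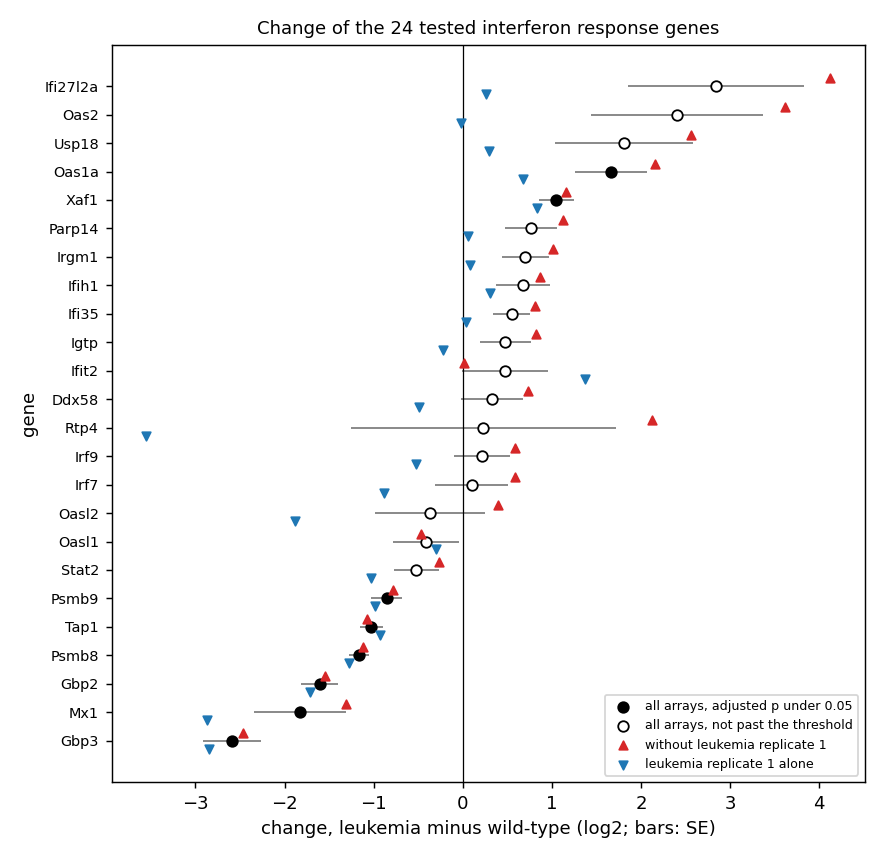
Change of the 24 tested genes (log2, leukemia minus wild-type) over all arrays with its SE (circles, filled where the limma adjusted p was under 0.05), without leukemia replicate 1 (upward triangles) and for leukemia array 1 alone (downward triangles). The triangles lie apart for Ifi27l2a (4.13 and 0.26), Oas2 (3.62 and -0.03) and Rtp4 (2.12 and -3.56) and together for Psmb8 (-1.11 and -1.28) and Tap1 (-1.07 and -0.93).

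The ISG15 system attaches the ubiquitin-like protein Isg15 to other proteins, and Usp18 removes it and also blocks signalling at the receptor chain Ifnar2. Usp18 was at 6.83, 7.98 and 10.23 log2 on leukemia arrays 1, 2 and 3, against 6.87, 6.22 and 6.52 in wild-type. Array 1 lay inside the wild-type range, array 2 above it and array 3 more than 3 log2 units above it, and the change of 1.81 ± 0.78 (SE) did not pass (limma adjusted p = 0.103; 2.57 without leukemia replicate 1, adjusted p = 0.0168). Uba7 and Ube2l6, enzymes of the forward reaction, differed from Usp18 in that every leukemia array was high. Uba7 was chosen for mention after its values were seen. Uba7, the activating enzyme for Isg15, was at 9.85, 10.06 and 10.84 log2 on leukemia arrays 1, 2 and 3, against 8.70, 8.77 and 8.56 in wild-type (change 1.58 ± 0.25 SE, limma adjusted p = 0.00266). Ube2l6, the conjugating enzyme, was at 7.80, 7.56 and 8.24 log2 on leukemia arrays 1, 2 and 3, against 5.78, 5.25 and 5.88 in wild-type (change 2.23 ± 0.25 SE, limma adjusted p = 5.53e-04). Neither gene overlapped between the groups, and leukemia array 1 differed by 1.17 and 2.16 from the wild-type mean. Herc6, a further gene of the ISG15 system, was at 5.72, 6.86 and 7.46 log2 on leukemia arrays 1, 2 and 3. In wild-type Herc6 was at 6.28, 6.18 and 6.05, so array 1 lay below and arrays 2 and 3 above every wild-type array. Its change of 0.51 did not pass (limma adjusted p = 0.351).

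Of the cytosolic sensors of viral nucleic acid, Ifih1 (MDA5) and Ddx58 (RIG-I) detect double-stranded RNA and Zbp1 detects Z-form nucleic acid. Ifih1 was at 8.13, 8.16 and 9.21 log2 on leukemia arrays 1, 2 and 3, against 8.07, 7.67 and 7.72 in wild-type. Ddx58 was at 6.71, 7.77 and 8.10 log2 on leukemia arrays 1, 2 and 3, against 7.37, 7.20 and 7.04 in wild-type. For Ifih1 arrays 1 and 2 lay just above the wild-type arrays and array 3 more than 1 log2 unit above them (change 0.68, limma adjusted p = 0.115), and for Ddx58 array 1 lay below and arrays 2 and 3 above all wild-type arrays (change 0.33, limma adjusted p = 0.473). Other Ddx58 probe sets, dim on most or all arrays, gave -0.09 and 0.02. Zbp1 was dim on every array, at 3.73, 4.10 and 3.84 log2 in leukemia against 5.11, 4.83 and 5.004 in wild-type (exact permutation test, two-sided, p = 0.1, which is the lowest value possible for 3 against 3). Mavs, the adaptor of the RNA sensors, was chosen for mention after its values were seen. It was at 8.40, 9.98 and 10.37 log2 on leukemia arrays 1, 2 and 3, against 8.49, 8.17 and 8.68 in wild-type, the same order as Ddx58 (change 1.14, limma adjusted p = 0.0974; 1.73 without leukemia replicate 1, adjusted p = 7.83e-04).

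Irf7 and Irf9, transcription factor genes of the pathway, had small mean changes over opposed leukemia arrays. Irf7, which amplifies interferon production, was at 5.49, 7.001 and 6.93 log2 on leukemia arrays 1, 2 and 3, against 6.59, 6.43 and 6.10 in wild-type. Irf9, the DNA-binding partner of Stat2, was at 7.96, 8.97 and 9.18 log2 on leukemia arrays 1, 2 and 3, against 8.70, 8.37 and 8.39 in wild-type. In both genes array 1 lay below and arrays 2 and 3 above every wild-type array, so that the mean changes of 0.10 and 0.22 did not pass (limma adjusted p = 0.862 and 0.603). Leukemia array 1 differed by -0.89 for Irf7 and -0.53 for Irf9 from the wild-type mean, and without leukemia replicate 1 both genes were higher, by 0.59 each (limma adjusted p = 0.0378 and 0.0150). Stat2 was at 5.48, 6.17 and 6.30 log2 on leukemia arrays 1, 2 and 3, against 6.71, 6.27 and 6.53 in wild-type (change -0.52, limma adjusted p = 0.139). A second Stat2 probe set moved the other way (0.37), so the direction of Stat2 depends on the probe set.

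Among the interferon-inducible GTPases Gbp2 and Gbp3 fell and Irgm1 and Igtp did not. Guanylate-binding proteins attack the membranes of vacuoles that hold pathogens. Gbp2 was at 5.56, 5.58 and 5.85 log2 on leukemia arrays 1, 2 and 3, against 6.96, 7.22 and 7.62 in wild-type, and Gbp2 fell by 1.60 (SE 0.21, limma adjusted p = 0.00109). Gbp3 was at 5.20, 4.99 and 6.19 log2 on leukemia arrays 1, 2 and 3, against 7.80, 8.32 and 8.03 in wild-type, and Gbp3 fell by 2.59 (SE 0.33, limma adjusted p = 0.00101), with leukemia arrays 1 and 2 below the filter level. With both set to that level the change of Gbp3 was -2.38. All leukemia arrays lay well below all wild-type arrays in both genes, array 1 included. Another guanylate-binding protein gene, Gbp7, named after its values were seen, rose by 0.78 (limma adjusted p = 0.00179), to 10.04, 10.21 and 10.41 log2 on leukemia arrays 1, 2 and 3, against 9.47, 9.42 and 9.42 in wild-type. The immunity-related GTPases Irgm1 and Igtp (Irgm3), which regulate the same vacuoles, were instead high on leukemia arrays 2 and 3. Irgm1 was at 8.25, 9.24 and 9.14 log2 on leukemia arrays 1, 2 and 3, against 8.21, 8.03 and 8.28 in wild-type. Igtp was at 8.71, 9.78 and 9.74 log2 on leukemia arrays 1, 2 and 3, against 8.98, 8.78 and 9.05 in wild-type. Neither change passed over all arrays (0.70 and 0.48, limma adjusted p = 0.0698 and 0.217), and both did without leukemia replicate 1 (1.02 and 0.83, limma adjusted p = 8.43e-04 and 0.00139). Iigp1, the effector GTPase of this family, was dim, at 3.08, 3.71 and 3.43 log2 in leukemia against 4.26 to 5.9996 in wild-type (exact permutation test, two-sided, p = 0.1).

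Psmb8 and Psmb9 are catalytic subunits of the immunoproteasome, which cuts peptides for MHC class I, and Tap1 is a chain of the pump that carries them into the endoplasmic reticulum. Psmb8 was at 10.11, 10.13 and 10.42 log2 on leukemia arrays 1, 2 and 3, against 11.26, 11.53 and 11.38 in wild-type, and Psmb8 fell by 1.17 (SE 0.11, limma adjusted p = 2.98e-04). Psmb9 was at 9.94, 9.81 and 10.49 log2 on leukemia arrays 1, 2 and 3, against 10.88, 11.02 and 10.90 in wild-type, and Psmb9 fell by 0.85 (SE 0.17, limma adjusted p = 0.00755). Tap1 was at 8.42, 8.18 and 8.38 log2 on leukemia arrays 1, 2 and 3, against 9.19, 9.39 and 9.47 in wild-type, and Tap1 fell by 1.03 (SE 0.13, limma adjusted p = 8.98e-04). The 3 genes were bright in both groups, no leukemia array reached a wild-type array, and array 1 did not stand apart from arrays 2 and 3. Their calls held without each replicate in turn. A second, dim Tap1 probe set gave 0.02 and a dim Psmb8 probe set -0.42. Cxcl10, the chemokine that draws activated T cells, was dim on all arrays, at 3.80 to 4.13 log2 in leukemia against 3.68 to 3.84 in wild-type.

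Promoter sequence was compared with these patterns, using RefSeq windows of the GRCm38.p6 build. Windows reached from 250 bases before to 50 bases after each gene's start, and 24 of the 33 genes had 1 or more. The ISRE core was searched as GAAANNGAAA on both strands and the GAS core as TTCNNNGAA, which reads the same on both strands. The ISRE core was found for 13 of these 24 genes and for 3.99% of all 27025 genes with a window, and the GAS core for 5 of the 24 and for 9.55% of all genes. Matches to the letters are a description and not evidence of binding. The stretches below hold the 120 bases before the start of 5 genes with an ISRE match, read 5′ to 3′ on the gene's strand, and are shown because Oas1a, Irgm1 and Igtp were high on leukemia arrays 2 and 3 while Gbp2 and Gbp3 fell on every leukemia array. Capitals mark ISRE matches, and overlapping matches run together.
Oas1a, chr5:120907526-120907645, - strand: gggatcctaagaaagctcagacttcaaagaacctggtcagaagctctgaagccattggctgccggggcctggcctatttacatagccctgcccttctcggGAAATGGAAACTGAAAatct
Irgm1, chr11:48871421-48871540, - strand: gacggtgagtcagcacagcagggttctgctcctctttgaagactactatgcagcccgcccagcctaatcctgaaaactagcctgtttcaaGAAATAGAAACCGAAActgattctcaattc
Igtp, chr11:58199436-58199555, + strand: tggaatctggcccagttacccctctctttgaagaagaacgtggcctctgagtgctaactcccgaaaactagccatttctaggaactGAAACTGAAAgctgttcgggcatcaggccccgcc
Gbp2, chr3:142620543-142620662, + strand: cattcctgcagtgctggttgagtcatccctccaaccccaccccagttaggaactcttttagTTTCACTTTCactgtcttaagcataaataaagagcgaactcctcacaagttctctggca
Gbp3, chr3:142559924-142560043, + strand: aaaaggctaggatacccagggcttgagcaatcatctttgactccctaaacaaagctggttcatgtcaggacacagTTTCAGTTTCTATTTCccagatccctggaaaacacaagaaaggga

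The ISRE letters stood close to the start in both sets, beginning 20, 30 and 34 bases before it in Oas1a, Irgm1 and Igtp and 59 and 45 bases before it in Gbp2 and Gbp3. Oas1a, Irgm1 and Gbp3 each held 2 overlapping matches. The printed genes were chosen among those with an ISRE match, so its presence in both patterns follows from the choice and does not compare the patterns. Oas2, Rtp4, Ifi27l2a, Parp14, Usp18 and Mx1 had no window and could not be searched. Ifi35, Irf7 and Irf9, which had the pattern of Oas1a, Irgm1 and Igtp, held no ISRE match, while Ddx58 held one. Of the genes that fell, Psmb8, Psmb9 and Tap1 held none. GAS letters, which are not marked, began 98 bases before the start of Oas1a and 45 bases before that of Igtp. None were found in the windows of Irgm1, Gbp2 and Gbp3. Tap1 and Psmb9 start on opposite strands 225 bases apart, and the whole stretch between their starts is given below because both fell together. Neither core was found in it, and with no ISRE match it carries no capitals.
Tap1 and Psmb9, chr17:34187331-34187555, + strand: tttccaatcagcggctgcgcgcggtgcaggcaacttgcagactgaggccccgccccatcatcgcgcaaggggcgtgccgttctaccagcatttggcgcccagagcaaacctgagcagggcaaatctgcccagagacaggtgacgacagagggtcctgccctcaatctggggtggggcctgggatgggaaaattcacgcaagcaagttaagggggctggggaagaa

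The rest of the pathway was read from 5 further lists of genes. Of 12 tested ligand, receptor and relay genes 3 rose and 4 fell, shares near the 16.9% and 25.2% of all genes, with a median change of -0.38. Ifngr1, the ligand-binding receptor chain for interferon gamma, was at 7.26, 6.65 and 5.53 log2 on leukemia arrays 1, 2 and 3, against 10.59, 10.41 and 10.41 in wild-type, and Ifngr1 fell by 3.99 (SE 0.40, limma adjusted p = 3.57e-04). Irf8, a lineage and interferon factor of monocytes and dendritic cells, was below the filter level on all leukemia arrays (3.71, 4.17 and 3.78 log2 on leukemia arrays 1, 2 and 3, against 10.34, 10.97 and 10.97 in wild-type). With the leukemia arrays set to the filter level, Irf8 was at least 40.7-fold lower in leukemia (limma adjusted p = 5.64e-06 on the measured values). Irf8, like Tcf4 above and Ptprc, Epsti1 and Nlrc5 below, met the filter through wild-type alone. Irf8, Ptprc, Epsti1 and Nlrc5 are among the fallen genes counted in their lists. Irf1, a factor of the interferon gamma response named here after its values were seen, fell by 1.95 to 6.97, 7.04 and 6.74 log2 on leukemia arrays 1, 2 and 3, against 8.70, 9.07 and 8.84 in wild-type. Ifngr1, Irf8 and Irf1 were low on every leukemia array. The kinase genes Jak1 and Jak2 rose by 0.59 and 0.71 and Irf5 rose by 0.73, though Irf5 was at -0.19 with the mean of its probe sets. Of the receptor chains for type I interferon, Ifnar1 changed by -0.45 (limma adjusted p = 0.0294, and 0.122 without wild-type replicate 3) and Ifnar2 by -0.30 (limma adjusted p = 0.386). Ifnar2 passed with the mean of its probe sets (-0.76, limma adjusted p = 0.00334) and without leukemia replicate 1 (-0.60, limma adjusted p = 0.0159). Ifnb1, interferon beta, was dim in both groups.

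Of 9 tested genes listed as inhibitors of interferon signalling 1 rose and 4 fell, beside 16.9% and 25.2% of all genes (median -0.23). They were Pias1, Pias3, Pias4, Ptpn1, Ptpn2, Ptpn6, Ptpn11, Ptprc and Trim24, and whether interferon induces them was not tested. Socs3 was dim on every array, so the count holds no Socs gene. The phosphatase gene Ptprc (CD45) was dim on all leukemia arrays and at least 41.3-fold lower in leukemia with these set to the filter level (limma adjusted p = 4.00e-06 on the measured values), and with the mean of its probe sets the measured change was -3.91. Ptpn6 (SHP-1) fell by 0.75, and Ptpn2, a phosphatase that acts on JAK1, rose by 0.82. Socs1, the direct inhibitor of the receptor kinases, was not tested as too dim in wild-type and on leukemia array 1. It was at 4.80, 7.13 and 7.01 log2 on leukemia arrays 1, 2 and 3, against 5.18, 4.90 and 5.05 in wild-type, so that arrays 2 and 3 were about 2 log2 units above all others. Of 12 tested sensing and adaptor genes 2 rose and 3 fell, again beside 16.9% and 25.2% of all genes (median 0.24). Myd88, the adaptor of most Toll-like receptors, rose by 0.89 and the kinase gene Tbk1 rose by 0.39, whereas the kinase gene Ikbke fell by 1.76 and Sting1 (Tmem173), the adaptor of DNA sensing, fell by 1.27. The call of Tbk1 (limma adjusted p = 0.0481) was lost without leukemia replicate 1 (0.0621) or 2 (0.101) and without any wild-type replicate (0.0957 to 0.140).

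**Figure D4:**
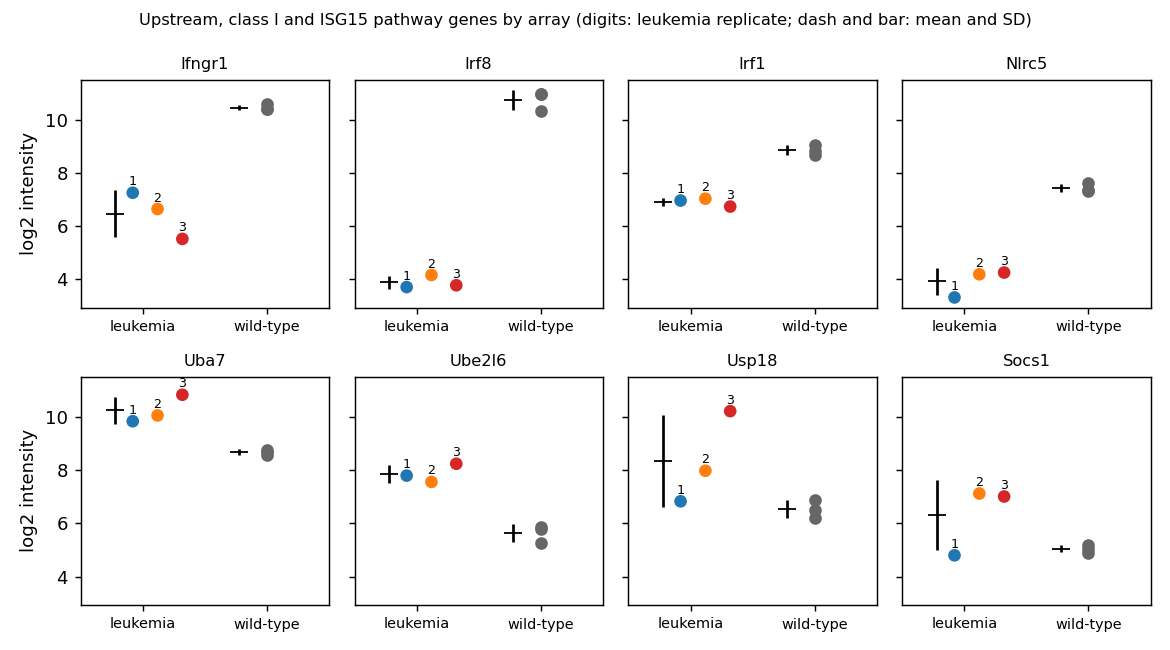
Log2 intensity of 8 genes on each leukemia array (digits give the replicate) and on each wild-type array, with the mean and SD of each group (n = 3). Ifngr1, Irf8, Irf1 and Nlrc5 are lower and Uba7 and Ube2l6 higher on all leukemia arrays, while Usp18 and Socs1 are high on leukemia arrays 2 and 3.

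Of 29 further interferon-induced genes tested 6 rose and 6 fell, near the 16.9% and 25.2% of all genes (median 0.08). Irf1, counted above with the relay genes, is in this list too and is among the 6 that fell. Ube2l6 and Slfn2, a Schlafen family gene, rose most, by 2.23 and 2.12, and Slfn2 was at 7.83, 8.9999 and 9.68 log2 on leukemia arrays 1, 2 and 3, against 6.74, 6.79 and 6.62 in wild-type. Epsti1 was dim on all leukemia arrays and at least 5.88-fold lower in leukemia with these set to the filter level (limma adjusted p = 4.82e-04 on the measured values). Ifitm3, a membrane protein gene that blocks virus entry, changed by -3.74 and was at 6.25, 7.92 and 8.12 log2 on leukemia arrays 1, 2 and 3, against 11.16, 11.27 and 11.09 in wild-type, and array 1 was the lowest here too. Without leukemia replicate 1 10 of the 29 rose and 7 fell (19.9% and 28.6% of all genes), and under the run block 6 rose and 11 fell (20.9% and 32% of all genes). In the run term 9 of the 29 were higher on leukemia arrays 2 and 3 than on array 1, and 0 were lower (9.24% and 4.54% of all genes).

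Of 12 tested genes of MHC class I presentation 0 rose and 9 fell, beside 16.9% and 25.2% of all genes, with a median of -0.69 (-0.71, -0.64 and -0.68 on leukemia arrays 1, 2 and 3). Nlrc5, the transactivator of class I genes, was at 3.32, 4.20 and 4.26 log2 on leukemia arrays 1, 2 and 3, against 7.63, 7.37 and 7.35 in wild-type, and with the leukemia arrays, all dim, set to the filter level Nlrc5 was at least 4.10-fold lower in leukemia (limma adjusted p = 1.14e-04 on the measured values). Tap2, the partner of Tap1, fell by 1.42 (SE 0.12, limma adjusted p = 1.40e-04). The class I light chain B2m fell by 0.77 and the heavy chain H2-K1 fell by 0.95, both named after their values were seen. B2m was at 12.01, 11.86 and 11.95 log2 on leukemia arrays 1, 2 and 3, against 12.69, 12.73 and 12.71 in wild-type. Its SD was 0.08 in leukemia and 0.02 in wild-type. In the run term 3 of the 12 class I genes were higher on leukemia arrays 2 and 3 than on array 1 and 0 were lower, though the median of the list was alike on the 3 arrays.

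**Figure D5:**
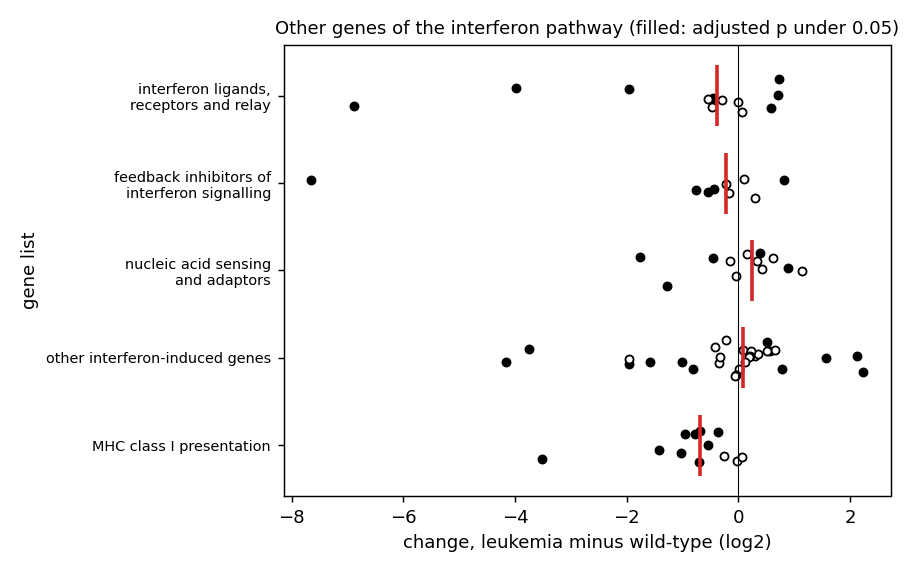
Change (log2, leukemia minus wild-type) of each tested gene in 5 further lists of the interferon pathway, filled where the limma adjusted p was under 0.05, with the median of each list as a vertical line. The class I presentation list has its median at -0.69 and 0 genes that rose, while the list of further interferon-induced genes centres on 0.08.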

How the data were processed

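Sample titles gave the groups and replicate numbers. Deposited values are intensities on a linear scale (3.31 to 18869), made with RMA per the submitters' processing notes, version not given in the sources used here. The planned test took log2 input, which RMA usually yields, so the log2 of each deposited intensity was used with no value added. Depth does not apply to arrays, and 6 arrays limit the precision. The labels name numbered leukemia mice but plural wild-type mice, so pooling is not excluded and p-values measure the spread between these samples. The table held 28821 probe sets, of which 23750 had 1 gene symbol, 677 several, 4355 none and 39 were controls. RefSeq genes of GRCm38.p6 held the gene ID of 23674 of them. The array run records served only to find the fluidics runs (2) and chip lot (1), and 0 value columns were not mapped.

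Leukemia was compared with wild-type by limma 3.58.1 under R 4.3.3, two-sided, with trended eBayes moderation and 4 residual degrees of freedom, and p-values were adjusted by Benjamini-Hochberg over the 9715 genes tested (threshold 0.05). No test was made over a gene list. For genes dim in 1 group the fold was taken with each dim array at its own filter level, which is not a measure of background. The members and lists were chosen with earlier results of these data known, and the run term was read after seeing the values. Named were all members and, of each further list, up to 2 genes per direction past the threshold, plus Jak1, Ifnar1, Ifnar2 and Socs1. Chosen after their values were seen were Irf1, Uba7, Herc6, Mavs, B2m, H2-K1, Gbp7 and Ly6e. Alternatives covered the filter, probe sets, scale, low values, variance moderation, array weights, blocks and each array left out. The procedure was tested on simulated data. Figures were drawn with matplotlib 3.10.9.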

Additional observations from a re-analysis of the deposited data

How the results depend on the processing

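The fall of Gbp2, Gbp3, Psmb9, Tap1 and Psmb8 passed under every alternative that gave a value (18 for Gbp3 and Psmb8, 19 for the others), with changes of -1.76 to -1.32 for Gbp2, -2.96 to -2.21 for Gbp3, -1.06 to -0.72 for Psmb9, -1.11 to -0.50 for Tap1 and -1.28 to -0.80 for Psmb8. Over all genes 4089 of 9715 were called in either direction, against 3984 with arrays centred on the median and 4706 with array weights. The calls were 3790 of 9165 with the mean of all probe sets and 3452 of 8251 with probe sets free of shared endings. With an array left out they were 2647 to 4716 of 9715. The number of interferon response genes that rose was 2, against 6 with arrays centred on the median, 11 with array weights, 1 with the mean of all probe sets, and 1 to 13 with an array left out. The number that fell was 6, against 3 with probe sets free of shared endings (18 members tested) and 11 both with the fluidics run as a block and within the run that holds both groups, and 5 to 6 with an array left out. The median change was 0.28, against -0.39 in both run settings, and 0.02 to 0.66 with an array left out. Rtp4 (-3.56), Irf7 (-0.89) and Irf9 (-0.53) turned lower in both run settings, where leukemia array 1 alone stands against wild-type, and Irf5 turned lower with the mean of its probe sets (-0.19). The number higher on leukemia arrays 2 and 3 than on array 1 was 12, against 0 with array weights and 8 to 17 with an array left out, and the number lower was 0, against 0 to 2. The median SD over the leukemia arrays was 0.64, and 0.20 to 0.75 with an array left out. In the further lists, with 73 genes tested and Irf1 counted once, 12 genes rose and 25 fell, beside 16.9% and 25.2% of all genes. With an array left out 10 to 18 rose and 19 to 27 fell. The replicate numbers do not pair the samples (same-numbered arrays correlated at -0.07, 0.05 and 0.03 in their deviations). With the replicate block 2 members rose and 6 fell, beside 3565 of all 9715 genes called in either direction. The cause of these changes was not tested beyond what each setting leaves out.

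With 3 arrays a group, signal over background limits the dim genes, and 6 of the 30 measured members were below the filter.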

Other observations

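Ly6e, an interferon-induced surface protein gene of the Ly6 family, was named after its values were seen. It was at 11.33, 11.33 and 6.12 log2 on leukemia arrays 1, 2 and 3, against 11.45, 11.61 and 11.57 in wild-type. Leukemia array 3 alone was far below the rest, and the same array was the highest for Usp18, Oas2 and Rtp4. The change of Ly6e was -1.95 ± 1.32 (SE, limma adjusted p = 0.268).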
